A study of Mus musculus with 11 samples.

Results

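The kallikreins of the epidermis and their inhibitor were followed through skin and small intestine of mice that received vehicle or imiquimod (IMQ), a TLR7 ligand that induces psoriasis-like dermatitis. Members were chosen by name, as the kallikrein genes *Klk5*, *Klk6*, *Klk7*, *Klk8*, *Klk9*, *Klk10*, *Klk11*, *Klk13* and *Klk14*, together with *Spink5*. These are 10 of the 45777 genes in the table. BALB/c mice aged 8 to 10 weeks received 62.5 mg of cream daily on the shaved back, which was Vaseline in control mice and held 5% IMQ in IMQ-treated mice. Treatment lasted 5 to 7 days by the study's methods, whereas the sample annotation gives 5 to 8 days and adds the right ear. Neither states the days, the sex or the shared tissues of single mice. Libraries carried the numbers 1 to 3 for control skin, 4 to 6 for IMQ skin, 7 to 9 for control small intestine and 10 and 11 for IMQ small intestine. No source used here says whether libraries were pools, so p-values measure the spread between these libraries.

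Kallikreins are secreted serine proteases that are made as inactive precursors in the granular layer and cleave the desmosomal proteins that hold corneocytes together, which lets the skin surface shed. Several of them can activate one another, and KLK5 and KLK14 can cleave the receptor PAR2 on keratinocytes. LEKTI, the product of *Spink5*, is split into fragments that inhibit several of these proteases, and its loss causes Netherton syndrome, in which the barrier is overly shed and inflamed.

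The 9 kallikrein members lie on the + strand of chromosome 7 within 170 kb, at positions 43680880 to 43851181 of GRCm38, the assembly also called mm10. Their order from the first position is *Klk14*, *Klk13*, *Klk11*, *Klk10*, *Klk9*, *Klk8*, *Klk7*, *Klk6* and *Klk5*, with the non-member *Klk12* between *Klk13* and *Klk11*. The promoters of the 2 members called in skin, *Klk14* and *Klk13*, are shown beside those of *Klk10* and *Klk5*, which were not called, since neighbours of one cluster differed in their change. Each window runs from 250 bases before to 50 bases after an annotated start, from RefSeq on GRCm38.p6, with motif matches in capitals. For *Klk14* and *Klk5* the window lies downstream of the gene start, at 43680880 and 43834157, and the sequence at those gene starts was not searched.
Klk14 (chr7:43690168-43690467, + strand): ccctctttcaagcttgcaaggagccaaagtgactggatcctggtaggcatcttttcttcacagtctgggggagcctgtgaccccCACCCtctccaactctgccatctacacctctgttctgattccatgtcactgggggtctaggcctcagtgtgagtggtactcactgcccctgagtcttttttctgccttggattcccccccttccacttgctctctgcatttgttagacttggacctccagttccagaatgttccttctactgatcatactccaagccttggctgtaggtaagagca
Klk13 (chr7:43712317-43712616, + strand): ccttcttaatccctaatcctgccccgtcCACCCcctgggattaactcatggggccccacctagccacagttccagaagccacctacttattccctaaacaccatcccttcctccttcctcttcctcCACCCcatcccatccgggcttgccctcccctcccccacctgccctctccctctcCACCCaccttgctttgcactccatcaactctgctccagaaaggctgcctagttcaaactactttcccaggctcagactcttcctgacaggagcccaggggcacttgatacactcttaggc
Klk10 (chr7:43780804-43781103, + strand): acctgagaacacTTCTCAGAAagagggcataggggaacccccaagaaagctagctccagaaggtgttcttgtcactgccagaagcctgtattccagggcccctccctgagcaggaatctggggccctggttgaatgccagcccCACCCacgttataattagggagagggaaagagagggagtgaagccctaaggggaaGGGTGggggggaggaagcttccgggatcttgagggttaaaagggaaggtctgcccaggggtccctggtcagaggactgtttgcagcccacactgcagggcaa
Klk5 (chr7:43842019-43842318, + strand): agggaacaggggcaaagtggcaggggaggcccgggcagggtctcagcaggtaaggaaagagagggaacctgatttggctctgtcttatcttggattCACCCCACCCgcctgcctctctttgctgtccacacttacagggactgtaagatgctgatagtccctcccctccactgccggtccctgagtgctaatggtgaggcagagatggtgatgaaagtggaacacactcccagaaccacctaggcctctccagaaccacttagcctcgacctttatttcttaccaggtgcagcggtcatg

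Motifs were chosen with the expression values known and were searched on both strands in the 11 windows listed for the 9 kallikreins, of which *Klk6* and *Klk11* have 2 each. The letters CACCC, a box bound by Krüppel-like factors, occurred in 8 of the 11 windows, against 57.5% of all 32851 RefSeq promoter windows. They lay 3 times in the window of *Klk13*, once in that of *Klk14*, and 2 times each in those of *Klk10* and *Klk5*, where the matches of *Klk5* adjoin. A STAT motif, TTCNNNGAA, occurred in the window of *Klk10* and in no other kallikrein window, against 8.3% of all windows. No window held the AP-1 motif TGANTCA, the NF-kB consensus motif, the grainyhead-like motif AACCNGGTT or the letters TATAAA, which were in 7.81%, 0.155%, 0.271% and 13.6% of all windows. Called and uncalled genes shared the CACCC letters in these windows. The windows of *Klk13* and *Klk14* held no STAT, AP-1 or NF-kB match. Most windows of all genes lack these 3 motifs, so their absence here is a description and cannot tell these genes from others.

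*Spink5* lies apart from the cluster, on the + strand of chromosome 18 from 43959545 to 44022487 (GRCm38). Libraries held 44995414 to 58526384 counts. Skin libraries carried keratinocyte markers and small intestine libraries did not: the summed FPKM of 6 suprabasal markers was 2909 to 8555 in skin and 0.539 to 0.919 in small intestine. Control skin library 2 stood apart, with 147 FPKM summed over 6 markers of small intestine epithelium against 0.0276 to 0.0412 in the other control skin libraries and 0.0476 to 3.66 in IMQ skin. In the same library the sum of 8 hair follicle markers was 2.47 FPKM, against 656 and 1062 in the other controls and 2.09 to 2.96 in IMQ skin. Over the 3 genes in the pan-leukocyte list the sum was 15.4 to 27.0 FPKM in control and 73.8 to 91.0 in IMQ skin, and over 4 neutrophil markers it was 2.86 to 5.07 and 29.6 to 38.0. Their part in the values of the kallikreins was not tested. The skin fit was also run without library 2, and its values for genes called in the test of all 6 libraries are given with them.

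In control skin, the kallikreins spanned a wide range of levels. Levels between genes are compared in FPKM, which is scaled by transcript length and library size. *Klk7*, which encodes the chymotrypsin-like enzyme of the stratum corneum, was highest with 177, 174 and 85.4 FPKM. *Spink5* followed with 93.3, 131 and 24.5 FPKM. *Klk10* had 98.1, 90.8 and 41.1 FPKM. The trypsin-like *Klk5*, regarded as an initiator of the cascade, had 75.7, 78.1 and 34.5 FPKM. By mean FPKM the order went on with *Klk8*, *Klk6*, *Klk11*, *Klk9*, *Klk13* and *Klk14*. Only *Klk14* lay beyond the range of its neighbour in this order, since each other neighbouring pair overlapped. At the bottom, *Klk14* had 0.222 ± 0.0412 FPKM (mean ± SD, n = 3) and its neighbour *Klk13* had 7.55 ± 4.41.

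In IMQ skin *Klk7* stayed at the top, with 217 ± 82.0 FPKM (mean ± SD, n = 3), and *Klk6* came next with 177 ± 81.8. *Klk8* and *Klk13* followed, with 112 ± 42.6 and 103 ± 51.5 FPKM. *Klk9*, with 93.9 ± 59.0 FPKM, came before *Spink5*, with 65.3 ± 28.9 FPKM. Again, *Klk14* was lowest and was the sole member beyond the range of its neighbour. IMQ library 6 had the lowest FPKM of its group for all 10 members and control library 3 for all but *Klk13*, and both were also lowest for the suprabasal marker sum, with 3733 and 2909 FPKM.

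**Figure D1:**
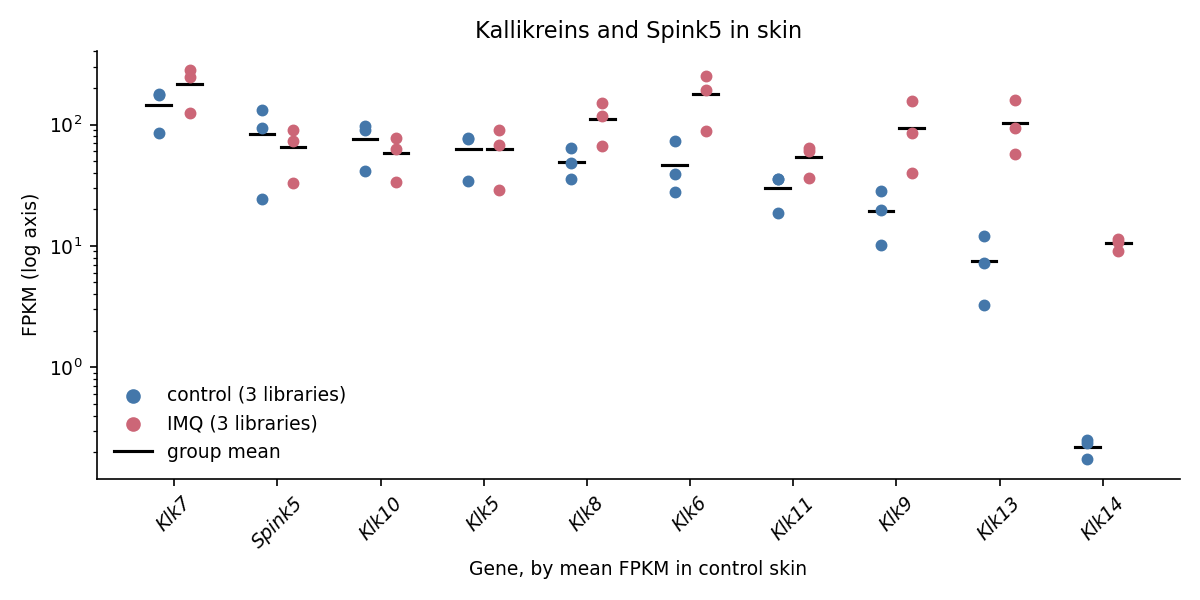
FPKM (log axis) of the 10 genes in 3 control (blue) and 3 IMQ (red) skin libraries, with a black line at each group mean and genes ordered by their control mean. Groups separate for *Klk8*, *Klk6*, *Klk11*, *Klk9*, *Klk13* and *Klk14* and overlap for the others, and *Klk14* moves from 0.175 to 0.253 in control up to 9.16 to 11.4 FPKM. The share of all genes that separate was taken in normalized counts only, where *Klk11* overlaps, and was 15.1% for genes higher in IMQ skin.

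To ask which members differed with IMQ in skin, all 20512 genes with a count in every skin library were fitted with edgeR's quasi-likelihood test. All 10 members passed this filter. With an adjusted p (Benjamini-Hochberg over all genes) under 0.05, 2 of the 10 members were called, both higher in IMQ skin, against a background of 6.74% of all genes called and 4.05% called higher. The normalized counts of 5 members, *Klk6*, *Klk8*, *Klk9*, *Klk13* and *Klk14*, were higher in every IMQ library than in every control library, a pattern seen in 15.1% of all genes. Since whole tissue was sequenced, more cells of a type and more RNA per cell cannot be told apart.

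*Klk14*, which encodes a trypsin-like protease, showed the largest change among the members. In control skin the reads were 23, 18 and 17 counts, and in IMQ skin 915, 794 and 647 counts. On the FPKM scale this was 0.253, 0.238 and 0.175 against 11.4, 10.8 and 9.16. The IMQ libraries lay close together and far above the controls. Normalized counts were 45.3 times as high by group mean, and the log2 fold change was 5.50 ± 0.26 (SE, edgeR adjusted p = 5.39e-04). Without library 2 it was 5.54 (edgeR adjusted p = 0.00155). As a share of the summed kallikrein FPKM, *Klk14* remained small, at 0.0535% ± 0.0119 in control and 1.32% ± 0.506 in IMQ skin (SD, n = 3).

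*Klk13*, whose product is a trypsin-like protease found in stratified epithelia, had 12.1, 3.28 and 7.27 FPKM in control skin and 159, 93.7 and 57.5 FPKM in IMQ skin. Control library 2 was lowest, and no control library reached the lowest IMQ library. The log2 fold change was 3.91 ± 0.53 (SE, edgeR adjusted p = 0.0108), and by group mean normalized counts were 15.1 times as high. Without library 2 it was 3.63 (edgeR adjusted p = 0.0146). Among the summed kallikreins its share went from 1.87% ± 1.08 to 11.6% ± 1.45 (SD, n = 3).

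For 3 further members the groups did not overlap but the test across all genes was not passed. *Klk9* had 28.1, 19.8 and 10.2 FPKM in control and 157, 84.9 and 39.9 FPKM in IMQ skin. Its log2 fold change was 2.37 ± 0.57 (SE, edgeR adjusted p = 0.0577). The spread within the IMQ group was wide, with normalized counts 4.14 times as high in its top library as in its lowest. *Klk6*, which encodes a protease also made in the nervous system, had 73.2, 38.8 and 28.0 FPKM in control and 249, 194 and 88.0 FPKM in IMQ skin. Its log2 fold change was 1.98 ± 0.50 (SE, edgeR adjusted p = 0.0638). IMQ library 6 was only a little above control library 1. *Klk8*, also called neuropsin, had 63.8, 47.8 and 35.5 FPKM in control and 151, 118 and 66.5 FPKM in IMQ skin, with a log2 fold change of 1.30 ± 0.37 (SE, edgeR adjusted p = 0.0902). Without library 6, *Klk6*, *Klk8* and *Klk9* had adjusted p of 0.0479, 0.0444 and 0.0450 in edgeR and 5 members were called, with 2.39% of all genes called higher. The same 5 members were called with DESeq2, with 7.24% of all genes called higher, and with a joint fit of 11 libraries, with 4.61% called higher. Most alternatives did not call these 3 genes: each was called in 1 of 6 fits with a library left out and in 2 of 9 other settings.

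*Klk11*, a trypsin-like protease of the granular layer, had 35.4, 35.6 and 18.8 FPKM in control and 63.9, 60.4 and 36.5 FPKM in IMQ skin. In FPKM the lowest IMQ library was just above the highest control, while in normalized counts control library 2, at 2576, lay above IMQ library 6, at 2522. Its log2 fold change was 0.89 ± 0.33 (SE, edgeR adjusted p = 0.169). *Klk7* had 280, 246 and 124 FPKM in IMQ skin beside the control values above, and control libraries 1 and 2 lay between the IMQ libraries. Its log2 fold change was 0.62 ± 0.41 (SE, edgeR adjusted p = 0.412), with a 95% interval of −0.34 to 1.59.

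*Klk5*, *Klk10* and *Spink5* were not called, and their fitted differences were small beside their spread. *Klk5* had 90.7, 68.3 and 28.8 FPKM in IMQ skin, within and around its control range. Its log2 fold change was 0.05 ± 0.49 (SE, edgeR adjusted p = 0.964), and the 95% interval ran from −1.10 to 1.20. *Klk10* had 77.2, 63.4 and 33.8 FPKM in IMQ skin, and its log2 fold change was −0.35 ± 0.42 (SE, edgeR adjusted p = 0.681) with an interval of −1.35 to 0.66. *Spink5* had 89.6, 73.0 and 33.3 FPKM in IMQ skin. Its log2 fold change was −0.31 ± 0.63 (SE, edgeR adjusted p = 0.818), with an interval of −1.81 to 1.19, so changes of more than 2-fold in both directions were not resolved at this spread. Control library 2 was highest for *Spink5*, and without it the log2 fold change was 0.25.

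**Figure D2:**
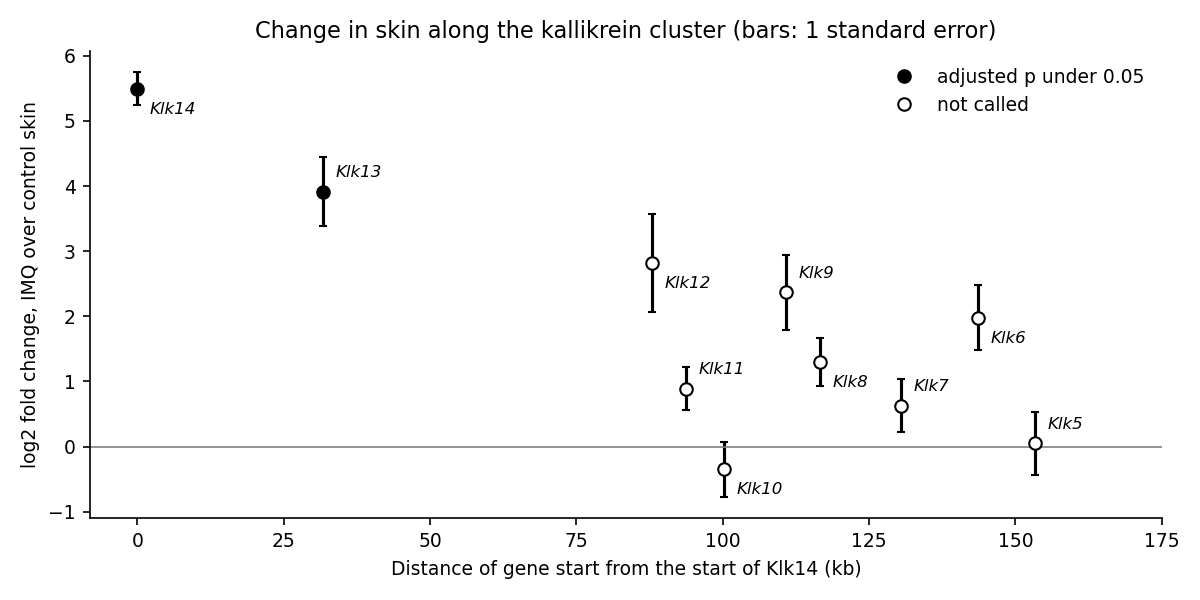
Log2 fold change of IMQ over control skin (edgeR, bars of 1 standard error) against the distance of each gene start from that of *Klk14*, in kb, with filled points for adjusted p under 0.05. Values run from 5.50 for *Klk14* at 0 kb to −0.35 for *Klk10* and 0.05 for *Klk5*, and the 2 called genes are the first of the cluster.

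Along the cluster, the 2 called members were the neighbours at its first end, while *Klk10*, between *Klk11* and *Klk9*, was not higher in IMQ skin. *Klk12*, which lies between *Klk13* and *Klk11*, had a log2 fold change of 2.82 ± 0.75 (SE, edgeR adjusted p = 0.0746), and it was the sole one of 17 other kallikreins that was tested in skin. Outside, *Siglece*, which encodes a sialic acid receptor of myeloid cells, starts 32.0 kb before *Klk14* and rose with a log2 fold change of 4.34 (edgeR adjusted p = 5.49e-04), or 4.56 without library 2. Between them, *Ctu1*, a tRNA thiolation enzyme, had a log2 fold change of −0.00 (edgeR adjusted p = 0.995). The antisense gene *2310002F09Rik* shares 287 exon bases with *Klk14* and 382 with *Klk8* in GENCODE. In RefSeq it runs from 43745466 to 43755936 and overlaps neither *Klk14*, which ends at 43695536, nor *Klk8*, which starts at 43797532. The strand setting of the counting is not given in the sources used here. The antisense gene had 14, 23 and 14 counts in control skin, near the counts of *Klk14* there, and 4, 13 and 4 counts in IMQ skin, far below them. For *Klk8*, all 6 libraries had far more counts than the antisense gene.

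The make-up of the kallikrein transcripts differed between the groups. Shares are percent of the FPKM summed over the 9 kallikreins, given as mean ± SD with n = 3. In control skin *Klk7* held 33.3% ± 2.17, *Klk10* 17.2% ± 1.42 and *Klk5* 14.2% ± 1.54. In IMQ skin *Klk7* held 24.8% ± 1.94, *Klk10* 6.65% ± 0.382 and *Klk5* 6.84% ± 0.780. For each of these 3 genes every IMQ library lay below every control library. *Klk6* went from 10.6% ± 2.52 to 19.6% ± 1.29, and *Klk9* from 4.32% ± 0.583 to 9.98% ± 2.35, with every IMQ library above every control library. *Klk8*, at 11.6% ± 1.92 and 12.8% ± 0.809, and *Klk11*, at 6.91% ± 0.550 and 6.38% ± 1.20, overlapped between the groups. Shares sum to a fixed total, so a higher share of some genes lowers that of the others. *Klk5*, *Klk7* and *Klk10* were not called in the test above. How many of all genes separate on this scale was not taken, so these separations are a description.

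**Figure D3:**
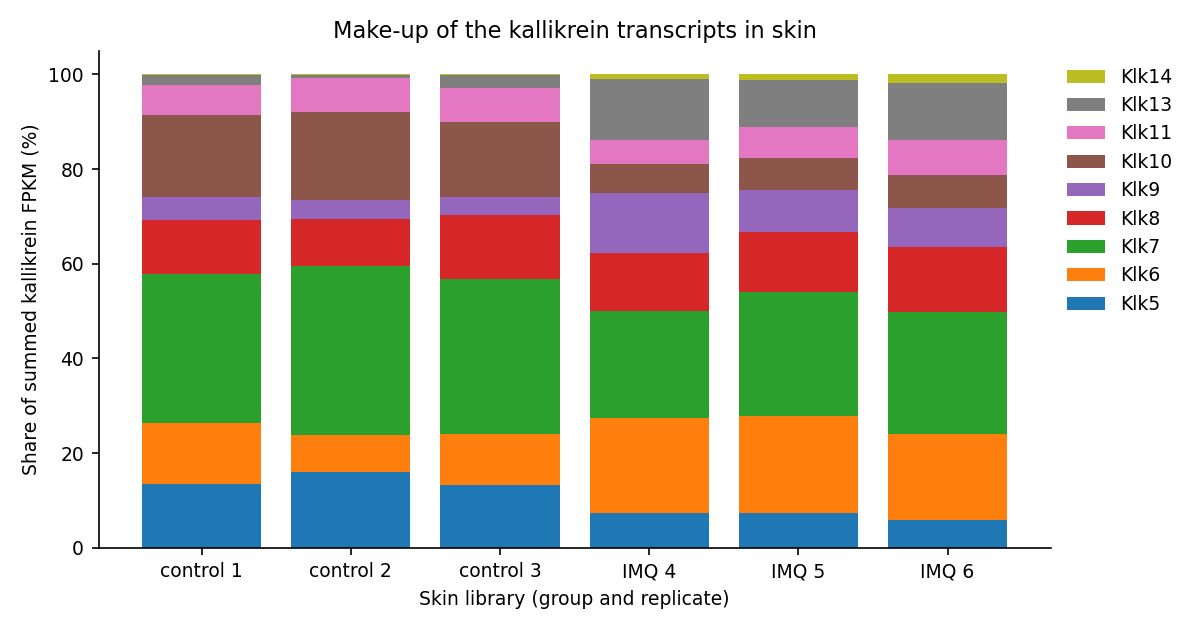
Share (%) of the summed FPKM of the 9 kallikreins taken by each gene, stacked for the 3 control and 3 IMQ skin libraries. *Klk13* takes 0.672% to 2.79% in control and 9.98% to 12.8% in IMQ libraries, and *Klk10* takes 15.8% to 18.6% and 6.23% to 6.97%.

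Set against their inhibitor, the kallikreins together were higher in IMQ skin. The summed FPKM of the 9 genes was 564, 489 and 261 in control and 1240, 939 and 484 in IMQ libraries, beside the *Spink5* values above. The ratio of this sum to *Spink5* was 6.05, 3.72 and 10.6 in control libraries and 13.8, 12.9 and 14.6 in IMQ libraries. Thus the lowest IMQ library lay above the highest control library, with means of 6.80 ± 3.52 and 13.8 ± 0.849 (SD, n = 3). The log2 ratio of the means was 1.02, given without a test. Control library 2, which stood apart in its markers, had the lowest of these ratios, 3.72. Relative to *Spink5* FPKM, 5 of the 9 kallikreins, *Klk6*, *Klk8*, *Klk9*, *Klk13* and *Klk14*, did not overlap and were higher in IMQ skin, against 2.77% of all genes. *Klk5* per *Spink5* was 0.938 ± 0.421 in control and 0.938 ± 0.0736 in IMQ skin. These are transcript ratios, and neither protein nor protease activity was measured in these files.

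**Figure D4:**
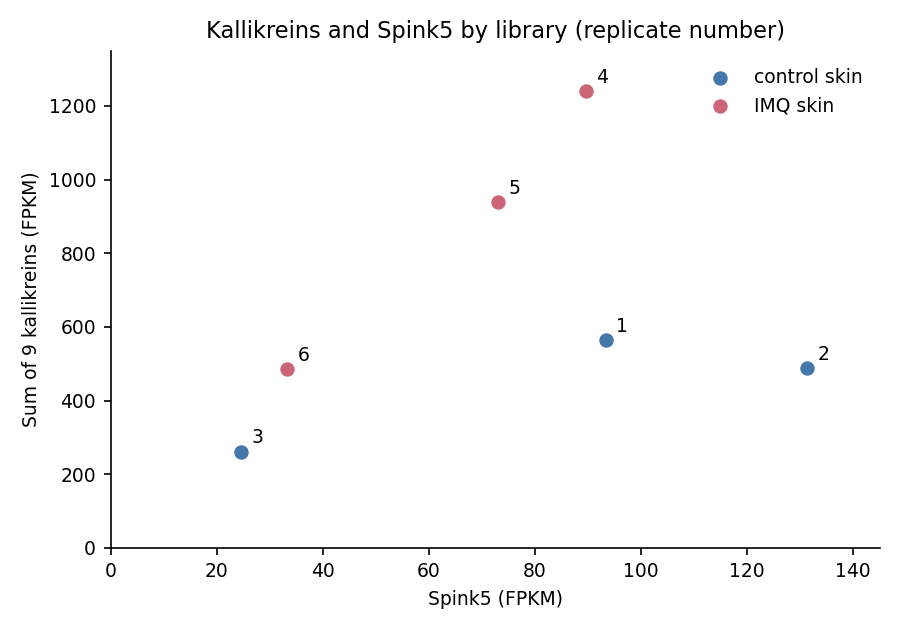
Summed FPKM of the 9 kallikreins against *Spink5* FPKM in each skin library, with replicate numbers beside the points, both axes starting at 0. IMQ libraries 4 and 6 lie above control libraries 1 and 3, the nearest to them in *Spink5* level, and library 5 has no control of similar level. Ratios were 12.9 to 14.6 kallikrein FPKM per *Spink5* FPKM in IMQ libraries against 3.72 to 10.6 in control libraries.

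Since the amount of epidermis in a sample can differ, members were also expressed per 1000 FPKM of keratins, a scale chosen after the values were seen. Per 1000 FPKM of the suprabasal keratins *Krt1* and *Krt10*, 7 members did not overlap and were higher in IMQ skin, *Klk6*, *Klk7*, *Klk8*, *Klk9*, *Klk11*, *Klk13* and *Klk14*, against 3.04% of all genes. *Klk10* was 15.4, 14.6 and 16.8 in control and 10.4, 10.5 and 10.2 in IMQ libraries, lower without overlap as were 4.34% of all genes. *Klk5* and *Spink5* overlapped. The 2 keratins themselves differed in direction, with log2 fold changes of 0.78 for *Krt1* and −0.29 for *Krt10*. Neither was called (edgeR adjusted p = 0.381 and 0.782). *Klk8* was 10.7 ± 3.45 in control and 20.0 ± 0.532 in IMQ skin, and *Klk13* was 1.80 ± 1.22 and 18.1 ± 3.11 on this scale (SD, n = 3). With the log2 level of these keratins as a covariate in edgeR, 7 members were called, 6 higher with 5.07% of all genes and *Klk10* lower with 3.49% of all genes. *Klk10* had a log2 change of −0.53 (edgeR adjusted p = 0.0241). This covariate fit was not run without library 2.

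The basal keratins *Krt5* and *Krt14* gave other values. Their sum itself was higher in IMQ skin, at 2684 ± 419 FPKM in control and 5413 ± 851 in IMQ libraries (SD, n = 3), without overlap. The other 2 genes in the basal list did not move with them: *Krt15* was called lower, at 355 ± 90.8 and 72.4 ± 6.96 FPKM (SD, n = 3), and *Trp63* was not called, at 56.2 ± 5.67 and 61.3 ± 3.78 FPKM. Per 1000 FPKM of these keratins, *Klk13* and *Klk14* did not overlap and were higher, against 1.8% of all genes. *Klk10* was lower without overlap, as were 70.3% of all genes. With the log2 level of these keratins as a covariate 0 members were called by edgeR, and 1 of all 20512 genes (0.00488%) was called higher, as the covariate and the treatment separate the same libraries and cannot be told apart. At an unadjusted p under 0.05, 2304 genes passed in that fit, among them 6 members, *Klk14* with a positive coefficient and *Klk5*, *Klk7*, *Klk10*, *Klk11* and *Spink5* with negative ones. The log2 fold change of *Klk14* there was 4.59 (edgeR adjusted p = 0.203) and that of *Klk13* was 2.31 (edgeR adjusted p = 0.552).

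**Figure D5:**
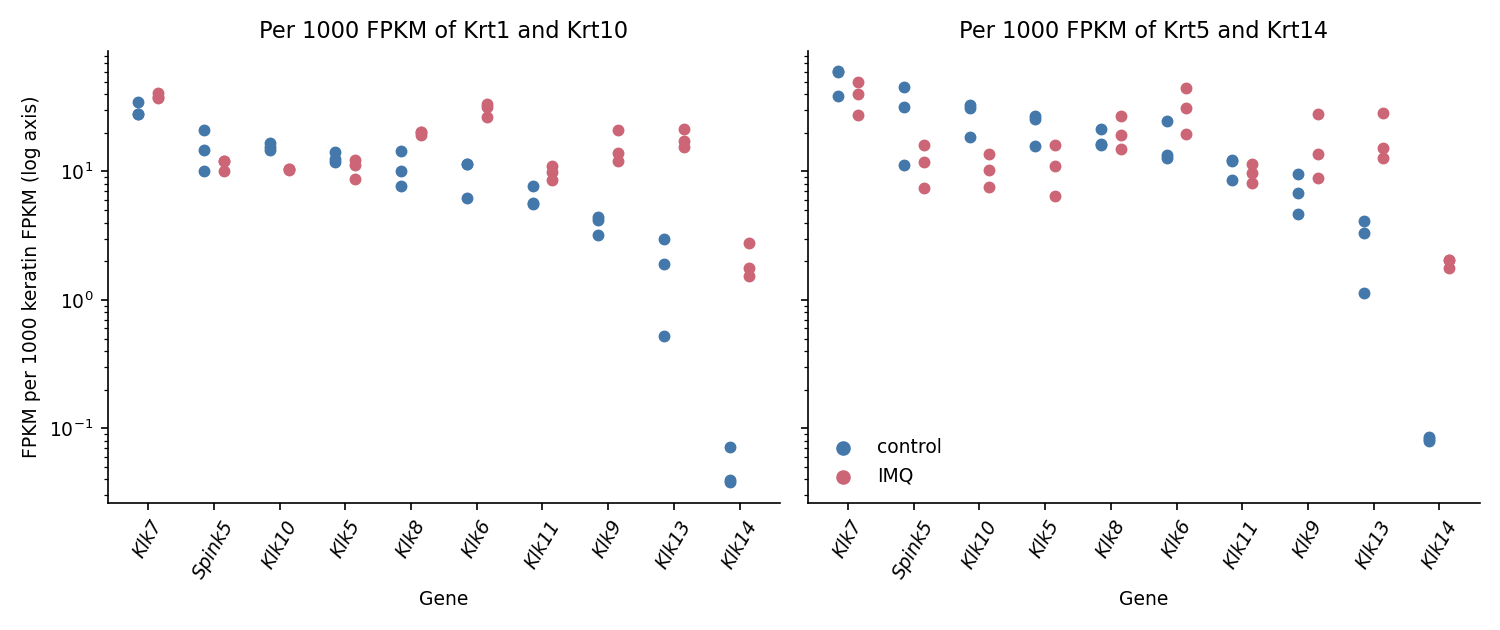
FPKM of each gene per 1000 FPKM of *Krt1* and *Krt10* (left) or of *Krt5* and *Krt14* (right), on a shared log axis, with each point 1 of 3 control (blue) or 3 IMQ (red) skin libraries. *Klk13* and *Klk14* are higher in IMQ skin in both panels, whereas *Klk7* is higher per *Krt1* and *Krt10*, at 37.6 to 40.6 against 27.8 to 34.9, and overlaps per *Krt5* and *Krt14*.

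In control skin against control small intestine, 9 of 10 members were called, all higher in skin, with 58.1% of the 19888 genes called and 29.2% called higher. *Klk5*, *Klk7*, *Klk9* and *Klk11* had 0 counts in all 5 small intestine libraries. *Spink5* had 0 counts in 4 of them and 3 counts in IMQ library 10. Against a floor of 3 counts in each control library, control skin was at least 1609-fold higher for *Klk5*, 5366-fold for *Klk7*, 560-fold for *Klk9*, 740.0-fold for *Klk11* and 7575-fold for *Spink5*, in CPM. *Klk6* had 4 counts in 1 control library and 0 in the other 4 libraries. *Klk13* had 0 to 9 counts per small intestine library. Members at or near 0 in the gut passed the filter through skin, where they are high, so their calls follow in part from it. With a count required in every control library, *Klk8* and *Klk10* alone could be tested, and both were called higher in skin. In that fit 9798 of 18890 genes were called, 4851 of them higher in skin.

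*Klk8*, *Klk10* and *Klk14* were detected at low levels in the gut. *Klk8* had 76, 42 and 59 counts in control and 82 and 44 counts in IMQ small intestine, which was 0.543 to 1.29 FPKM, and was higher in control skin by 5.15 ± 0.35 on the log2 scale (SE, edgeR adjusted p = 5.93e-05). *Klk10* had 6, 8 and 7 counts in control and 6 and 3 counts in IMQ small intestine. *Klk14* had 8, 12 and 0 counts in control and 5 and 7 counts in IMQ small intestine. Its control levels did not separate the tissues by the test, with a log2 difference of 1.07 ± 0.83 (SE, edgeR adjusted p = 0.306), while IMQ skin had 647 to 915 counts.

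With IMQ in the small intestine, *Klk8* and *Klk10* passed the filter of a count in every library and neither was called, against 2.95% of 19965 genes. The log2 fold change of *Klk8* was 0.05 ± 0.39 (SE, edgeR adjusted p = 0.983), with a 95% interval of −0.86 to 0.96. That of *Klk10* was −0.64 ± 0.40 (SE, edgeR adjusted p = 0.728), with an interval of −1.58 to 0.31. At an unadjusted p under 0.05, 0 of both were called, and 0 were called with DESeq2 and limma-voom. The difference between the changes in skin and small intestine, tested as an interaction over 18108 genes, was 1.23 ± 0.58 for *Klk8* and 0.28 ± 1.03 for *Klk10* on the log2 scale (SE, edgeR adjusted p = 0.315 and 0.936). Neither was called, against 2.55% of all genes, and 0 were called with DESeq2. The unadjusted p of *Klk8* was 0.0572 in edgeR across all genes and 0.0293 in DESeq2. *Klk14* and *Klk13* were left out by the filter and enter with the filterByExpr filter, through IMQ skin, where they are high, so their values are a description. There the difference was 5.65 ± 1.01 for *Klk14* (SE, edgeR adjusted p = 0.0242) and 4.98 ± 1.73 for *Klk13* (SE, edgeR adjusted p = 0.205), with 1.61% of 21647 genes called.

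Genes that act with the kallikreins were described from lists chosen for their roles. Of 16 other protease inhibitors, 8 were tested in skin, 2 were higher and 0 lower, against 4.05% of all genes called higher, with a median log2 fold change of 0.25 against −0.01 over all genes. *Slpi*, an inhibitor of neutrophil elastase and of KLK7, had 0.963 to 1.42 FPKM in control and 14.0 to 31.8 FPKM in IMQ skin, with a log2 fold change of 4.48 (edgeR adjusted p = 0.00354). *Wfdc12*, another whey acidic protein inhibitor, had a log2 fold change of 3.41 (edgeR adjusted p = 0.0276). Without library 2, the edgeR adjusted p was 0.00615 for *Slpi* and 0.0438 for *Wfdc12*. *Serpina12*, which inhibits KLK7, had 6.06 to 30.1 FPKM in control and 4.84 to 19.8 FPKM in IMQ skin, and was not called, with a log2 fold change of −0.42 (edgeR adjusted p = 0.771).

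Of 19 other proteases, 16 were tested and 4 were higher, against the same 4.05% of all genes, with a median of 0.51. These were *Tmprss11a* (log2 fold change 5.31), *Prss27* (2.11), *Casp14* (1.68) and *Plau* (0.99). Without library 2, *Tmprss11a*, *Prss27* and *Casp14* were no longer called, with edgeR adjusted p of 0.0541, 0.0600 and 0.0770, and *Plau* was, at 0.0108. *Casp14*, a caspase of cornification, had 80.6 to 120 FPKM in control and 163 to 427 FPKM in IMQ skin. *St14*, which encodes matriptase, a protease that can activate kallikrein precursors, had 18.3 to 31.8 FPKM in control and 14.6 to 16.3 in IMQ skin, and was not called, with a log2 fold change of −0.71 (edgeR adjusted p = 0.0758). Without library 2, *St14* was called lower, at −0.88 (edgeR adjusted p = 0.0141), as were 1382 of 20752 genes in that fit.

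Of 12 substrates and downstream signals, 10 were tested, 2 were higher and 1 was lower, against 6.74% of all genes called in either direction, with a median of 0.31. *Tslp*, a cytokine that keratinocytes release on PAR2 activation, had 1.72 to 2.89 FPKM in control and 11.4 to 20.1 FPKM in IMQ skin, with a log2 fold change of 2.89 (edgeR adjusted p = 0.00445). *Il1b*, whose precursor KLK7 can cleave, had a log2 fold change of 2.84 (edgeR adjusted p = 0.00432). *F2rl1*, which encodes PAR2, was lower, at 8.70 to 10.9 FPKM in control and 4.84 to 6.53 FPKM in IMQ skin, with a log2 fold change of −0.74 (edgeR adjusted p = 0.0283). The desmosomal and corneodesmosomal substrates *Dsg1a*, *Dsc1* and *Cdsn* were not called, with log2 fold changes of −0.70, 0.71 and 0.06. Of the 4 wound keratins, 3 were higher, *Krt6b* (5.24), *Krt16* (4.63) and *Krt6a* (3.99) on the log2 scale, against 4.05% of all genes. Without library 2, the edgeR adjusted p was 0.00922 for *Tslp*, 0.00455 for *Il1b*, 0.0225 for *F2rl1* and 0.0126 to 0.0146 for these keratins, with the direction of each as before.

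Genes most like 4 of the members were found by the mean absolute difference of centred log2 normalized counts over 6 skin libraries, among 14650 genes with a mean of at least 100. The pattern of *Klk7* was closest to *Gba2* (0.0646), *Tmprss13* (0.0661) and *Calm4* (0.0678). That of *Klk6* was closest to *Pla2g4e* (0.181), *Nkpd1* (0.182) and *Prss27* (0.204). *Klk5* was closest to *Rnf39* (0.0922), *Yod1* (0.0941) and *Plcxd2* (0.106), and *Spink5* to *Il20ra* (0.140), *Krt78* (0.143) and *Slc6a14* (0.167). Among the members themselves, *Klk9* ranked 6th for *Klk6*, *Klk11* ranked 27th for *Klk7*, and *Klk10* ranked 34th for *Klk5*. Genes compared this way share the libraries and their treatment, and the likeness is a description.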

How the data were processed

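Skin and small intestine libraries of 11 samples were analysed. Per the labels and the study's methods, the authors trimmed reads with Trimmomatic, aligned 100-bp paired reads to mm10 with HISAT2 2.1.0 and quantified genes with StringTie 2.1.3b. They deposited unnormalized read counts in whole numbers, beside the FPKM and the TPM that the authors computed per gene. Counting tool, strand setting and multiple matches are not given in the sources used here, so near-identical paralogs and overlapping genes are uncertain.

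After relative log expression normalization, counts were tested with edgeR 4.0.16 (quasi-likelihood, glmQLFTest) in R 4.3.3, and adjusted by Benjamini-Hochberg over all genes tested, with 0.05 as the threshold. Genes with a zero in any compared library were left out, except in the tissue comparison, where filterByExpr chose the genes. The standard error is the log2 fold change divided by the root of F. Total counts were 44995414 to 58526384, so precision was set by the spread between libraries for abundant members and by depth for members near 3 counts. Alternatives used DESeq2 1.42.0, limma 3.58.1, other normalizations and filters, log2(FPKM + 0.01) and log2(FPKM + 1), and left-out libraries. Only the edgeR fit of the skin design was tried on simulated counts, with the same dispersion for every gene. The wider spread of some members and the other fits were not simulated. Positions came from RefSeq on GRCm38.p6 and GENCODE.

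Members and lists were chosen with earlier results of these data known. All 10 members are named, with up to 4 called genes of each list by size of change. *St14*, *Serpina12*, *Dsg1a*, *Dsc1*, *Cdsn*, *Siglece*, *Ctu1*, *Klk1* and *Klk12* were named after their values were seen.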

Additional observations from a re-analysis of the deposited data

How the results depend on the processing

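Across the 15 alternatives set for skin, *Klk13* and *Klk14* were called in each, at log2 fold changes of 3.48 to 4.37 and 3.23 to 5.62. The count of members called in skin was 2, but 5 with DESeq2, 5 with a joint fit of 11 libraries, and 5 without library 6. It stayed at 2 with each other library left out. Chosen after the data were seen, the covariates of *Krt1* with *Krt10* and of *Krt5* with *Krt14* gave 7 and 0. For the counts of 5 and 7 the cause was not tested. *Klk5* turned to −0.015 with limma-voom, −0.066 with log2(FPKM + 0.01), −0.063 with log2(FPKM + 1), and −0.23 with the *Krt1* and *Krt10* covariate. With the *Krt5* and *Krt14* covariate *Klk5*, *Klk6*, *Klk7*, *Klk8*, *Klk9* and *Klk11* turned to −3.18, −0.98, −2.05, −0.86, −0.94 and −1.27. With a library left out, *Klk5* ran from −0.34 to 0.41 and *Spink5* from −0.76 to 0.25 in skin, *Klk8* from −0.28 to 0.35 in small intestine, and the interaction of *Klk10* from −0.055 to 0.68. For the interaction, 0 members were called, but 1, *Klk14*, with the filterByExpr filter and 0 to 1 with a library left out, as it is tested only then. Of the tissue differences, 9 fell to 2 with a count required in every control library, since 2 members then remained to be tested. In small intestine the count was 0 in all 14 alternatives. The log2 kallikrein to *Spink5* ratio moved by less than its spread in all 9 alternatives. That spread was the SD within groups, pooled. Control libraries, with ratios of 3.72 to 10.6, added more to it than IMQ libraries, with 12.9 to 14.6, so the limit was wide. No paired analysis was possible because the sources used here do not state which libraries share a mouse. The tissue and interaction tests treated skin and small intestine libraries as independent.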

Other observations

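*Klk1*, the tissue kallikrein that releases kinins, lies in the same gene family and showed the reverse distribution between tissues. In small intestine it had 2721, 3286 and 2703 counts in control and 2266 and 1886 counts in IMQ libraries, with a log2 fold change of −0.49 ± 0.15 (SE, edgeR adjusted p = 0.188). In skin it had 41, 43 and 40 counts in control libraries and was listed at 0 in all 3 IMQ libraries, at least 12.8-fold lower than control against a floor of 3 counts per library. The filter on counts leaves it out in skin, and without that filter it was called lower (edgeR adjusted p = 0.00831), as were 395 of 29186 genes. It enters that fit through control skin alone and was named after its values were seen, so the call is a description. Members of the *Klk1b* family are near-identical to *Klk1*, so its counts are uncertain. *Slpi*, higher in IMQ skin, had 4.63 to 7.33 FPKM in control and 2.15 and 2.20 FPKM in IMQ small intestine, and was not called there, with a log2 fold change of −1.37 (edgeR adjusted p = 0.0558). Of the other proteases in small intestine, 12 of 19 were tested and *Ctsl*, a lysosomal protease, was called higher, against 2.95% of all genes called in that tissue, with a log2 fold change of 1.84 (edgeR adjusted p = 6.39e-04). Of the substrates and downstream signals, 5 of 12 were tested there and 2 were called higher, against the same share, *Il1b* at 3.16 (edgeR adjusted p = 0.00519) and *F2r*, which encodes the thrombin receptor PAR1, at 1.005 (edgeR adjusted p = 0.0290) on the log2 scale. Of 6 inhibitors tested there 0 were called by edgeR, and *Slpi* passed at an unadjusted p of 0.00174.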
